A study of Mus musculus with 2 samples.

Results

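Among the cells of 2 mouse fibrosarcoma libraries, 117 of 20602 held both Ctsk, which encodes the collagen-degrading protease cathepsin K, and Acp5, which encodes tartrate-resistant acid phosphatase, at 3 or more unique molecular identifiers (UMIs, single counted transcript molecules) each. They are called osteoclast-like cells here because those genes, with Mmp9 and Atp6v0d2, are the classical transcripts of the osteoclast. Members also had to carry under 0.2% of their UMIs on the 3 collagen genes Col1a1, Col1a2 and Col3a1 and no UMI of Cd3d, Cd3e or Cd3g. Only cells with a minimum of 300 genes and 500 UMIs, and with mitochondrial UMIs at or under 20%, were considered. The rule found 56 of 11617 cells in the library titled Blood and 61 of 8985 in the library titled Control. The members were thus chosen by their Ctsk and Acp5 counts, whose levels are given below as a description only.

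The tumours were fibrosarcomas, connective tissue tumours grown under the skin of wild-type C57BL/6 mice from implanted syngeneic cells. Tumours were injected either with erythrocytes of the same animals, suspended in buffered saline, or with saline alone. There was 1 library per group, and the labels of each library disagree with themselves. The library titled Blood carries the treatment label PBS injected, and the library titled Control carries the label Erythrocyte injected. The libraries are therefore named by title, differences are given as titled Blood over titled Control, and their sign says nothing about what erythrocytes do. A single library stands for each title, so nothing could be tested and no difference was checked in a replicate. Intervals are exact 95% intervals for counting error alone, and the UMIs of 1 cell share that cell. The sources used here do not give the numbers of animals behind each library, their age or any cell sort.

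Osteoclasts are giant cells of the monocyte and macrophage lineage that resorb bone. Precursors that receive CSF1 through CSF1R and RANK ligand (Tnfsf11) through RANK (Tnfrsf11a) switch on the transcription factor NFATc1, fuse with the help of DC-STAMP and OC-STAMP, and attach to matrix through the beta-3 integrin. They then acidify the space beneath them with a vacuolar proton pump (V-ATPase) and release cathepsin K, TRAP and MMP9 into it. Multinucleated cells with these products also occur outside bone, including in soft tissue tumours.

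In GRCm38 coordinates from GENCODE M21, Ctsk lies at chr3:95499256-95509362, Acp5 at chr9:22126727-22135711, Mmp9 at chr2:164940780-164955850 and Atp6v0d2 at chr4:19876841-19922605. Oscar, which encodes an immunoglobulin-like receptor of osteoclasts that binds collagen, lies at chr7:3609813-3616157. The promoters of Ctsk, the gene that defines the cells, and of Oscar, an effector with 3 UMIs among all other C1q macrophages of each library, are shown as the 250 bases before the RefSeq transcript start (GRCm38.p6), 5′ to 3′ on the gene's own strand. The Ctsk window is chr3:95498960-95499209 on the plus strand and the Oscar window is chr7:3616158-3616407 on the minus strand. Capitals mark matches to 4 motifs read on both strands: TGANTCA for AP-1, TGGAAA for the NFAT core, GAGGAA for the core of the macrophage factor PU.1, and CACGTG or CATGTG for the E-box of MITF and TFE factors.
Ctsk: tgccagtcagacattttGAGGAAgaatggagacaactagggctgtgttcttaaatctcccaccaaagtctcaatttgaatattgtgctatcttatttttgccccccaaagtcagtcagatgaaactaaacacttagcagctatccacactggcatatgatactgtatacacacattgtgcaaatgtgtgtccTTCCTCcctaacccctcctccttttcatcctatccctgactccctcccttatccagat
Oscar: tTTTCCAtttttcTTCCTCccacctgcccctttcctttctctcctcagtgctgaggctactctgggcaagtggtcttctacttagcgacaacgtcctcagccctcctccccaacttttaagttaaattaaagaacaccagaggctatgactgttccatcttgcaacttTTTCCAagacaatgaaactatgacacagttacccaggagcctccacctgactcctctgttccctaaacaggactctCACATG

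The Ctsk window held the PU.1 core 233 bases before the start on the plus strand and 58 bases before it on the minus strand. It held no match to the other motifs in these letters. The Oscar window held the NFAT core at 249 and 82 bases, the PU.1 core at 237 bases and the E-box CATGTG at 6 bases before the start, all on the minus strand, and no AP-1 match. No match overlapped another. Among all 32841 promoter windows of this length, 23.3% held the PU.1 core, 18.6% the NFAT core, 17.6% the E-box and 6.75% the AP-1 letters, so the matches are descriptions of these letters only.

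The members of the library titled Blood held 1063696 UMIs, and those titled Control held 1630208. A member had a median of 16047.5 UMIs in the library titled Blood (565 to 65033) and 27345 in the library titled Control (540 to 60264), with medians of 3768 and 4659 genes. Their median mitochondrial share was 4.56% in the library titled Blood and 5.60% in the library titled Control. The comparison cells were the other C1q macrophages, cells within the same limits that are no members and hold at least 3 UMIs of C1qa, C1qb and C1qc, the complement genes of resident macrophages. They numbered 5480 with a median of 12783 UMIs in the library titled Blood and 5367 with a median of 13676 UMIs in the library titled Control, with mitochondrial medians of 3.51% and 3.64%. The members were thus deeper than the comparison cells in both libraries.

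Barcodes shared by the libraries were frequent among members. Of all barcodes 349 were listed in both libraries, 2.89% of those titled Blood and 3.68% of those titled Control, and 324 of them had over 10 times the UMIs in one copy. Among members, 28 barcodes titled Blood and 31 titled Control were listed in both. All 39 barcodes that were members in at least 1 library and listed in both differed 45.4-fold to 59.6-fold in UMIs between the copies. The shallower copy was a member 15 times in the library titled Blood, at 565 to 1113 UMIs, and 8 times in the library titled Control, at 540 to 1434 UMIs. These shallow copies held 1.14% and 0.411% of the member UMIs, so they carry weight in counts of cells but little in summed levels. How one barcode came to be listed in both libraries was not tested, and counts of cells with a transcript are also given without the shallow copies.

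All members of the rule made up 0.482% of the cells titled Blood (0.364 to 0.626) and 0.679% of those titled Control (0.520 to 0.871), a ratio of 0.710 (0.485 to 1.04). The interval of that ratio includes 1. Without the shallow copies the shares were 0.359% and 0.597%, with a ratio of 0.602 (0.390 to 0.922). Without any shared barcode, 28 of 11268 cells titled Blood and 30 of 8639 titled Control were members, with a ratio of 0.716 (0.412 to 1.24). The direction was the same each time. The interval left out 1 without the shallow copies and included 1 without any shared barcode. With each cell thinned to 5000 UMIs, 28 of 6960 cells titled Blood and 46 of 6784 titled Control passed the rule, a ratio of 0.593 (0.357 to 0.970). The other C1q macrophages were 47.2% of the cells titled Blood and 59.7% of those titled Control. Of members and these macrophages together, without the shallow copies, members were 0.755% and 0.984%. That ratio was 0.767 (0.497 to 1.17), and its interval includes 1.

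The rule did not use Mmp9, a gelatinase, or Atp6v0d2, the V-ATPase subunit of osteoclasts. Both are known to accompany Ctsk and Acp5, and the members were chosen with earlier results of these data known. Their shares therefore describe the members and are no independent check of the label. Both transcripts were found together in 33 of 56 members titled Blood and 43 of 61 titled Control, and neither was found in 5 and 5. Without the shallow copies both were found in 27 of 41 and 42 of 53 members, and neither in 2 and 4. At 5000 UMIs per cell and without the shallow copies, Mmp9 was found in 68.3% of members titled Blood (51.9 to 81.9) and 76.9% of those titled Control (63.2 to 87.5). In the other C1q macrophages these shares were 7.46% and 6.22%. In cells with 3 or more Cd3 UMIs and no C1q UMI, which should lack the gene, they were 2.75% and 3.91%. These shares rest on the 255 of 629 and 179 of 396 such cells that reached 5000 UMIs. Over all such cells the median depths were 4628 and 4873.5 UMIs. Unthinned, Mmp9 was found in 80.5% and 84.9% of members and in 13.5% and 11.9% of the other macrophages. Atp6v0d2 was found in 70.7% and 78.8% of thinned members against 4.05% and 1.80% of the other macrophages, and in 0.392% and 0.559% of the Cd3 cells. Most members thus carried the osteoclast pair at shares far above those of the T cells that set the background.

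Not every member did, and the rest were told apart by C1q. After the shallow copies, 26 members titled Blood and 46 titled Control held under 0.5% of their UMIs on C1qa, C1qb and C1qc, with none above 0.273% and 0.442%. The remaining 15 and 7 members lay between 0.910% and 2.02% in the library titled Blood and between 0.921% and 1.62% in the library titled Control, so none lay between 0.442% and 0.910%. The 0.5% limit was set after the values were seen. Mmp9 and Atp6v0d2 were found together in 24 of 26 and 41 of 46 C1q-poor members, and in 3 of 15 and 1 of 7 C1q-rich members. The pair was thus found in most C1q-poor members and in few C1q-rich ones, so the name osteoclast-like is less well borne out for the C1q-rich members. The C1q-rich members held the macrophage gene Lyz2 at 11741 and 6859 CPM, its summed UMIs scaled to the same total in each class, against 7394 and 7398 CPM in the other C1q macrophages.

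**Figure D1:**
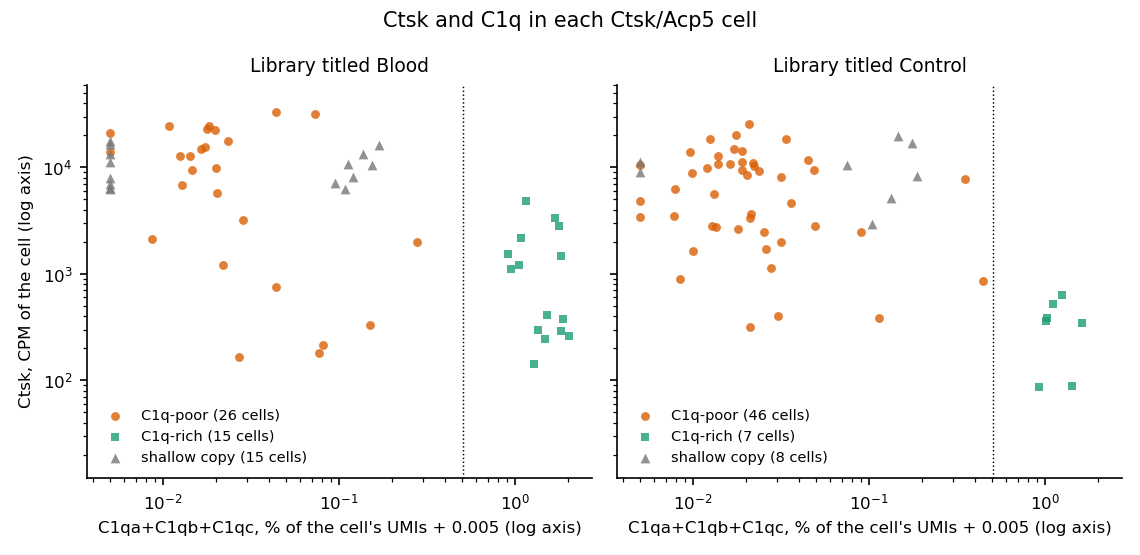
Each point is 1 member, titled Blood at left and titled Control at right. The log x axis is the share of its UMIs on the 3 C1q genes plus 0.005%. The log y axis is its Ctsk level in CPM, its UMIs brought to the same total in every cell. Orange points are C1q-poor, green points C1q-rich and grey triangles shallow copies of shared barcodes, and no orange or green point lies between 0.442% and 0.910% (dotted limit at 0.5%).

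Ctsk itself ran from 165 to 33437 CPM, here scaled within the cell, with a median of 11289 CPM in C1q-poor members titled Blood. It ran from 319 to 25579 CPM with a median of 7024 CPM in those titled Control. In C1q-rich members Ctsk ran from 144 to 4831 CPM in the library titled Blood and from 86.9 to 636 CPM in the library titled Control, so the ranges of both kinds of member overlapped. Summed over the class, Acp5 was at 12577 and 9985 CPM in C1q-poor members but at 587 and 371 CPM in C1q-rich members, against 277 and 291 CPM in the other C1q macrophages. C1q-poor cells were 0.228% of the cells titled Blood and 0.518% of those titled Control, a ratio of 0.440 (0.261 to 0.727). That share is of all cells, and no ratio per macrophage was formed for this class. C1q-rich members were 0.132% and 0.0789%, a ratio of 1.67 (0.640 to 4.83). C1q-rich cells were 36.6% of the deep members titled Blood (22.1 to 53.1) and 13.2% of those titled Control (5.48 to 25.3), a ratio of 2.77 (1.06 to 8.03). The mix of the 2 kinds therefore differed between the libraries, and values for C1q-poor members are given beside the differences between libraries.

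At the edge of the rule, 15 cells titled Blood and 13 titled Control had 2 Ctsk UMIs and enough Acp5, and 9 and 8 members had 3 to 5 Ctsk UMIs. The cells just outside had a median C1q share of 1.31% and 0.973% and Mmp9 at 350 and 13.3 CPM. The cells just inside had Mmp9 at 853 and 94.5 CPM. Their median C1q shares were 0.0719% and 0.525%, so cells on both sides of the limit included C1q-holding ones. The collagen limit left out 2 cells titled Blood and 3 titled Control. The Cd3 limit left out 1 and 3, and the 3 titled Control held 258 to 563 Ctsk UMIs beside 1 to 8 Cd3 UMIs. Of the 17 cells titled Blood and 5 titled Control with 3 or more Ctsk UMIs but 0 or 1 of Acp5, the median C1q share was 0.0136% and 0.00890%.

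The effectors of bone resorption were the clearest feature of the members. Of 20 effector genes listed beside the rule genes, 17 passed the filter of 20 CPM and 20 counts, and 13 were at least 2-fold higher in members than in the other C1q macrophages of both libraries, where 5.67% of all 6137 genes were. None was at least 2-fold lower, against 8.28% of all genes. The median log2 ratio of the 17 was 2.80 in the library titled Blood and 2.55 in the library titled Control, against -0.02 and -0.03 over all genes. Since these genes are those known to accompany Ctsk and Acp5, the counts describe the members and are no independent check of the label. Calcr, Siglec15 and Tm4sf19 did not pass the filter.

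Mmp9 was at 5259 CPM in members titled Blood and 70.2 CPM in the other macrophages, a ratio of 74.97 (72.2 to 77.8). In the library titled Control it was at 3836 CPM in members and 48.3 CPM in the other macrophages, a ratio of 79.4 (76.3 to 82.7). Among C1q-poor cells Mmp9 ran from 0 to 37441 CPM with a median of 4302 CPM in the library titled Blood, and from 0 to 21515 CPM with a median of 3259 CPM in the library titled Control. Even the C1q-poor cells thus differed widely in this gelatinase. In C1q-rich members it was 1598 CPM in the library titled Blood and 44.7 CPM in the library titled Control. It was found in 8 of those 15 cells titled Blood, with a median of 31.1 and a highest value of 7976 CPM, and in 3 of those 7 titled Control, with a median of 0.

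Atp6v0d2, which takes part in both the proton pump and cell fusion, was at 664 CPM in members and 10.9 CPM in other macrophages titled Blood, and at 754 and 5.58 CPM in the library titled Control. The fusion genes were higher as well. Dcstamp was at 150 CPM in members titled Blood and 165 CPM in those titled Control, 27.5-fold and 31.4-fold over the other macrophages, and Ocstamp at 279 and 345 CPM, 7.82-fold and 7.88-fold over them. Ocstamp was itself detected in 23.5% and 29.0% of the unthinned other macrophages, so it was the less restricted of the pair. The wider fusion list did not move as a whole, with 4 of its 12 tested genes higher (Atp6v0d2, Dcstamp, Itgb3 and Ocstamp), the adhesion gene Cd81 and Adam8 lower, and medians of 0.09 and 0.05.

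Oscar was nearly absent from the other C1q macrophages, with 3 UMIs among all of them in each library. It was at 115 CPM in members titled Blood and 73.6 CPM in those titled Control, ratios of 2987 (998 to 14685) and 2034 (680 to 10003). It was found in 17 of 56 and 22 of 61 members, in 17 of 41 and 21 of 53 without the shallow copies, and in 0 of 15 and 0 of 7 C1q-rich ones. Myo1d, an unconventional myosin, was at 68.6 and 63.8 CPM in members against 0.307 and 0.0965 CPM in the other macrophages. Slc9b2, a sodium and proton exchanger of osteoclasts, was at 309 and 461 CPM against 0.538 and 0.856 CPM, ratios of 575 (416 to 813) and 538 (421 to 696). Siglec15, a sialic acid receptor of osteoclasts, was at 5.64 and 7.97 CPM in members and at 0 in the other macrophages, where 3 counts would be 0.0384 and 0.0362 CPM. Calcr, the calcitonin receptor, had 0 UMIs in members titled Blood, where 3 counts would be 2.82 CPM, and was at 1.23 CPM in those titled Control.

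The acid-secreting machinery was raised with the effectors. Of 22 V-ATPase and acid secretion genes, 21 were tested, 12 were at least 2-fold higher in both libraries and 1 was lower, with median log2 ratios of 1.34 and 1.31. Atp6v1b2, a cytosolic pump subunit, was at 1013 and 849 CPM in members against 155 and 136 CPM in the other macrophages. Atp6v1g1 was at 1533 and 1528 CPM against 333 and 318 CPM. Carbonic anhydrase II, Car2, which supplies the protons, was at 95.9 and 91.4 CPM against 3.75 and 3.51 CPM. The chloride and bicarbonate exchanger Slc4a2 was at 157 and 172 CPM against 27.9 and 24.7 CPM. The pump's membrane isoforms moved apart. Tcirg1, the a3 isoform of osteoclasts, was at 360 and 416 CPM in members against 167 and 165 CPM, while Atp6v0a1, the a1 isoform, was at 25.4 and 15.3 CPM against 59.3 and 50.2 CPM. Atp6v0d1, the common counterpart of Atp6v0d2, was at 144 and 136 CPM against 140 and 135 CPM. Clcn7 and Ostm1, the chloride transporter of the ruffled border and its partner, did not pass the 2-fold limit in both libraries over all members. The ratios before the pseudocount were 1.95 and 2.65 for Clcn7 and 1.38 and 1.45 for Ostm1, and Clcn7 passed the limit in both libraries in C1q-poor members, with ratios of 2.25 and 2.85.

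**Figure D2:**
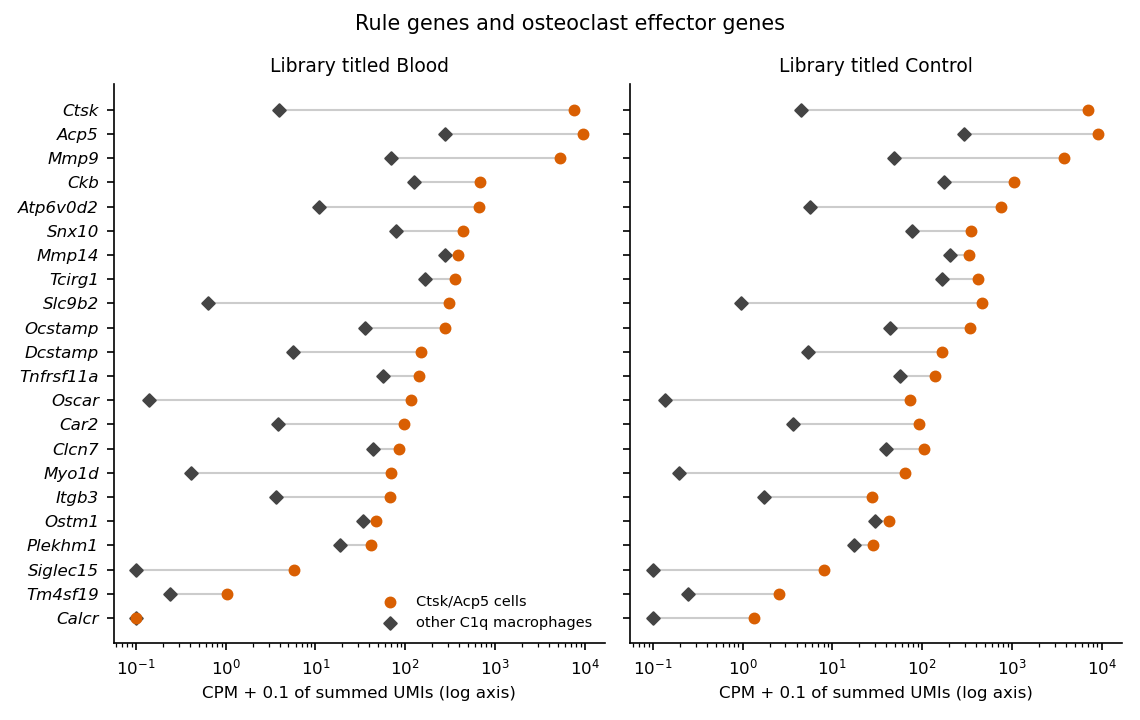
Levels of Ctsk, Acp5 and the 20 osteoclast effectors in CPM plus 0.1 on a log axis, titled Blood at left and titled Control at right. Orange points are the members and dark diamonds the other C1q macrophages. Mmp9 stood at 5259 and 3836 CPM in members against 70.2 and 48.3 CPM, whereas Ostm1 and Mmp14 lay close together in both classes.

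Of 22 transcription factors and signalling genes of osteoclast formation, 20 were tested, 8 were higher in members of both libraries and 2 were lower. Nfatc1, the central factor of the programme, was at 608 CPM in members titled Blood and 447 CPM in those titled Control, against 38.2 and 39.6 CPM in the other macrophages. Jdp2, of the AP-1 family, was at 451 and 493 CPM against 27.9 and 25.7 CPM. Ppargc1b, a coactivator of mitochondrial biogenesis, was 9.47-fold and 10.9-fold higher, and Src, the kinase needed for the ruffled border, 4.69-fold and 8.05-fold. Rcan1, a calcineurin regulator, was 6.41-fold and 6.74-fold higher. Mitf, Fosl2 and Prdm1, which represses the brakes on osteoclast formation, were also among the 8. The factors that osteoclasts share with macrophages were close to the comparison cells: Spi1, which encodes PU.1, was at 684 and 731 CPM against 450 and 500 CPM, and the adaptor Tyrobp at 2149 and 1991 CPM against 2159 and 2109 CPM. Fcer1g, the partner of OSCAR at the membrane, was lower at 1560 and 1312 CPM against 3224 and 3178 CPM, as was Pou2f2.

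Among the 12 known brakes on the programme 8 were tested. Irf8 was at 62.0 and 67.5 CPM in members against 272 and 289 CPM in the other macrophages. Nfkbia, an inhibitor that NF-kappaB itself induces, was at 762 and 607 CPM against 227 and 200 CPM. Irf8 was at 24.3 and 42.9 CPM in the C1q-poor cells.

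The receptors of the programme were present in the members and RANK ligand was not found there. Csf1r was at 607 and 558 CPM in members against 546 and 518 CPM in the other macrophages. Tnfrsf11a, the RANK receptor, was at 143 and 138 CPM against 56.8 and 57.1 CPM. Tnfsf11, RANK ligand, had 0 UMIs in the members of both libraries, which allows up to 2.82 and 1.84 CPM. It was at 47.2 and 33.4 CPM in the cells with 3 or more Cd3 UMIs and no C1q UMI. Those cells held 144 and 68 of the 400 and 331 Tnfsf11 UMIs of all cells. The decoy receptor Tnfrsf11b was also at 0 in members and at 13.4 and 17.6 CPM in the 27 and 31 cells with over 1% collagen UMIs. Csf1 had 1 UMI in members titled Blood and 53 in those titled Control, of which 98.1% lay in 1 C1q-rich cell. Il34, the other ligand of CSF1R, had 0 UMIs in members titled Blood, where 3 counts would be 2.82 CPM, and 7 UMIs or 4.29 CPM in those titled Control.

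Among the genes named by size of the ratio, Mt3 stood beside the effectors. Mt3, which encodes the metal-binding protein metallothionein 3, was at 620 and 591 CPM in members against 1.08 and 0.820 CPM in the other macrophages, ratios of 576 (459 to 732) and 721 (563 to 936). It was found in 24 of 56 and 27 of 61 members, and in 18 of 41 and 25 of 53 without the shallow copies. Bdh2, a hydroxybutyrate dehydrogenase, was at 233 and 339 CPM against 3.76 and 2.83 CPM. Kbtbd11 was 40.2-fold and 52.3-fold higher and the surface protein gene Cd109 32.3-fold and 55.0-fold. The lysosomal sulfatase Arsb was 25.8-fold and 18.4-fold higher, and Cyp2s1, a cytochrome P450, 23.2-fold and 87.5-fold. Coq8a, of ubiquinone synthesis, was 51.5-fold and 52.6-fold higher, and Chchd10, a mitochondrial protein gene, 15.3-fold and 27.5-fold. In C1q-rich members each of these 8 genes was at or below 38.4 CPM in both libraries.

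Energy genes were raised in the same cells. All 22 nuclear genes of oxidative phosphorylation were tested and 13 were at least 2-fold higher in both libraries, with medians of 1.19 and 1.39 and none lower. Ndufa4 was at 550 and 826 CPM against 146 and 171 CPM, and cytochrome c1, Cyc1, at 385 and 519 CPM against 108 and 118 CPM. Ckb, the creatine kinase of osteoclasts, was at 675 and 1055 CPM against 125 and 176 CPM, and Slc6a8, the creatine transporter, at 220 and 168 CPM against 28.8 and 18.04 CPM. Of 17 tested creatine and glycolysis genes these 2 were higher, and Slc16a3 and Slc2a1, a lactate and a glucose transporter, were lower. Tfrc, the transferrin receptor, was the 1 iron gene of 14 that was higher, at 177 and 176 CPM against 20.3 and 16.1 CPM. Hmox1, which breaks down haem, was at 80.9 and 95.7 CPM against 384 and 402 CPM.

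Apart from Mmp9, the other tested secreted and lysosomal proteases did not reach 2-fold over the other C1q macrophages in both libraries. Of 25 tested cathepsin and lysosomal hydrolase genes 0 were at least 2-fold higher and 8 were lower, with medians of -0.47 and -0.58. Ctsb was at 1363 and 835 CPM against 2151 and 1966 CPM, Ctsl at 651 and 369 CPM against 989 and 819 CPM, and Ctss at 1303 and 839 CPM against 2846 and 2951 CPM. In C1q-poor members Ctsb was at 627.5 and 659 CPM. Among 10 tested metalloproteinases and inhibitors Mmp9 alone was higher in both libraries, and Mmp13 was at 67.7 and 21.5 CPM against 155 and 91.7 CPM. The podosome list had 7 of 18 tested genes higher, among them Itgb3, Itgav, the actin regulator Cttn and vinculin, Vcl, and 1 lower. Itgb3 was at 67.7 and 27.6 CPM against 3.51 and 1.62 CPM. Of 5 tested coupling factors, the signals from osteoclasts to bone-forming cells, 0 were higher and C3 and Tgfb1 were lower over all members. In C1q-poor members, where 463 of all 6180 genes were higher and 777 lower, Pdgfb and Sema4d, 2 of the 5, were higher. The other 3, C3, C3ar1 and Tgfb1, were lower.

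Macrophage markers were reduced in the C1q-poor members, and not in all members. Their summed level was 4022 and 3543 CPM in C1q-poor members and 51943 and 30561 CPM in C1q-rich members, against 33150 and 34030 CPM in the other C1q macrophages. The sum includes the C1q genes, which set these classes, so it is partly fixed by the grouping. In C1q-poor members of both libraries 12 of the 14 tested markers were at least 2-fold lower. Over all genes 777 of 6180 were. The 12 include C1qa, C1qb and C1qc, whose lower level was fixed by the grouping and is no finding. The rest of the 12 were Adgre1, Apoe, Cd14, Fcgr1, Folr2, Lyz2, Mertk, Mrc1 and Ms4a7. The values that follow are over all members, of which the C1q-rich are a part. C1q chose the comparison cells and is no finding, but of the other 11 tested macrophage markers 5 were at least 2-fold lower in both libraries (Adgre1, Cd14, Fcgr1, Lyz2 and Mrc1), and all 10 tested genes of MHC class II and antigen presentation were, with medians of -2.10 and -2.41. Cd74 was at 2116 and 1902 CPM in members against 7268 and 9502 CPM, and H2-Aa at 573 and 378 CPM against 2404 and 3234 CPM. Of 15 interferon-stimulated genes 14 were lower, and of 22 cytokine and chemokine genes 17, with medians of -2.16 and -2.15. Il1b was at 40.4 and 96.9 CPM against 822 and 917 CPM. Ccr2, the chemokine receptor of monocytes, was at 17.9 and 39.3 CPM against 283 and 309 CPM. The other genes lowest against macrophages were Mgl2, Ms4a4c, Rsad2, Ccl12, Plac8, Ly6a, Ccl24 and Plbd1. Of 8 monocyte markers 7 were lower, and S100a4 was higher at 2487 and 3531 CPM against 587 and 474 CPM. The lysosomal antigen Cd68 was at 887 and 831 CPM against 546 and 541 CPM, so it did not share in the reduction. Of 13 lipid-associated genes, Lpl, lipoprotein lipase, was higher and Lipa lower, and of 20 immediate early genes 9 were lower and 0 higher.

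**Figure D3:**
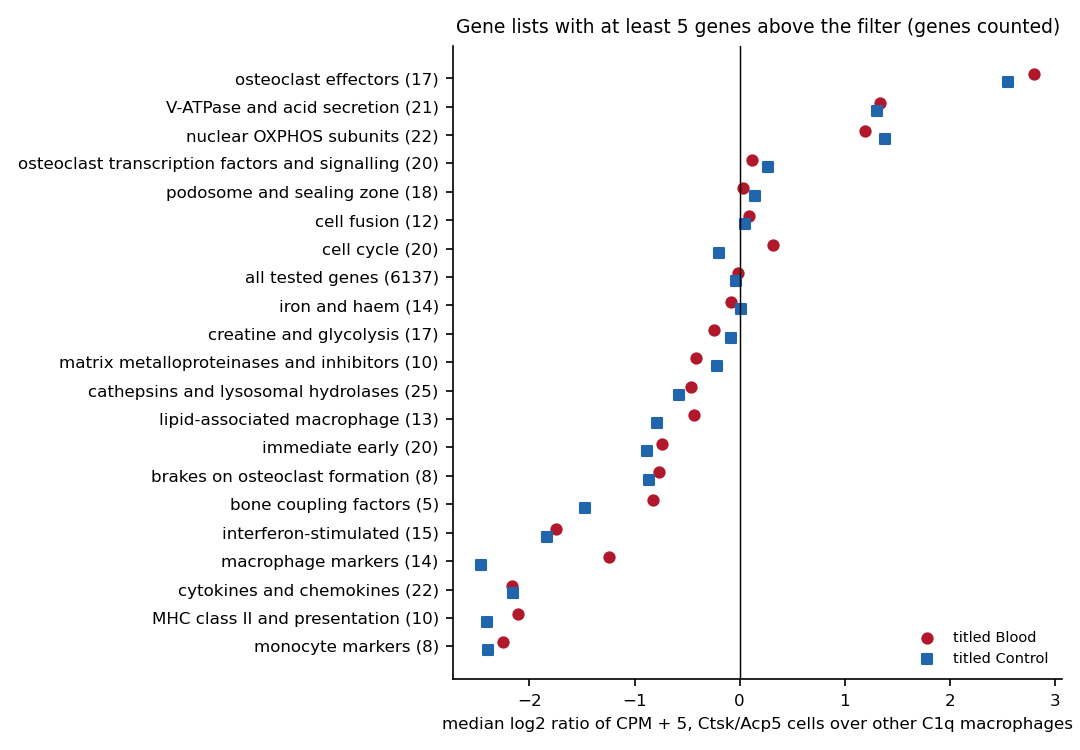
Median log2 ratio of members over other C1q macrophages for each gene list with at least 5 tested genes (number in brackets), red for titled Blood and blue for titled Control. Effectors (2.80 and 2.55), acid secretion (1.34 and 1.31) and oxidative phosphorylation (1.19 and 1.39) lie to the right of 0, and antigen presentation and cytokines lie beyond -2.

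Markers of most other cell types were low. Summed T and NK cell markers were at 25.4 and 22.1 CPM in members against 58.2 and 72.8 CPM in the other macrophages, with Cd3 at 0 by the rule. B cell markers were at 8.46 and 7.97 CPM with Cd79a and Ms4a1 at 0, neutrophil markers at 28.2 and 11.7 CPM, dendritic cell markers at 6.58 and 8.59 CPM, endothelial markers at 18.8 and 15.9 CPM, and mast cell markers at 0 and 1.84 CPM. Mesenchymal markers, of which the rule itself limited Col1a1, Col1a2 and Col3a1, were at 16.9 and 63.2 CPM. They were at 14.1 and 4.77 CPM in C1q-poor members but 614 CPM in the C1q-rich members titled Control, where 1 cell held 92.5% of the Col1a2 UMIs. The 12 genes of the bone-forming lineage summed to 318 and 353 CPM, against 417 and 363 CPM in the other C1q macrophages. Alpl, Sp7, Ibsp, Dmp1 and Sost were at 0 in members, and Spp1 and Sparc were the 2 genes of this list that passed the filter. A doublet caller marked 276 cells titled Blood and 162 titled Control, 0 of them members.

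Within the C1q-poor members the programme was graded by Ctsk. Equal groups of low, middle and high Ctsk over both libraries, split at 3290 and 10800 CPM, held 9, 4 and 13 cells titled Blood and 15, 20 and 11 titled Control from low to high. Ctsk chose these groups, and all levels of a cell share its total, so the gradients are descriptions. Acp5 was at 4878, 9403 and 22936 CPM from the low to the high group titled Blood and at 4832, 9213 and 17326 CPM in those titled Control. Mmp9 was at 541, 3878 and 14724 CPM, and at 1215, 3863 and 8369 CPM. Oscar was at 18.2, 81.4 and 351 CPM, and at 0, 74.7 and 188 CPM, so the low group of 15 cells titled Control held no Oscar UMI. Itgb3 was at 9.11, 56.4 and 187 CPM, and at 0, 16.6 and 86.3 CPM. The late effectors therefore climbed with Ctsk in both libraries.

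Ckb and the acid secretion genes climbed with Ctsk as well. Ckb was at 109, 1253 and 1431 CPM from low to high in the library titled Blood and at 138, 694 and 3093 CPM in the library titled Control. Summed V-ATPase genes were at 7344, 11169 and 14789 CPM, and at 6307, 10165 and 13685 CPM. Nfatc1 showed no such order, at 838, 382 and 971 CPM in the library titled Blood and at 374, 571 and 513 CPM in the library titled Control. The rank correlation with Ctsk over 26 cells titled Blood and 46 titled Control was 0.31 and 0.37 for Nfatc1, 0.90 and 0.73 for Acp5, 0.88 and 0.73 for Mmp9, 0.80 and 0.82 for Oscar, 0.56 and 0.73 for Atp6v0d2, 0.68 and 0.78 for Ckb and 0.76 and 0.85 for the summed V-ATPase genes. Oxidative phosphorylation genes differed between libraries in this respect, with 0.26 in the library titled Blood and 0.78 in the library titled Control. The summed cathepsin and lysosomal hydrolase genes did as well, at 0.77 titled Blood and 0.25 titled Control. Among single cathepsins, Ctsd was at 0.84 and 0.44, Ctsb at 0.46 and 0.20 and Ctsl at -0.10 and -0.41.

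Cell cycle genes ran the other way. Summed cell cycle genes were at 5658, 4297 and 1093 CPM from low to high in the library titled Blood and at 5291, 2973 and 1201 CPM in the library titled Control. Mki67, which marks dividing cells, was at 340, 207 and 0 CPM, and at 246, 44.8 and 0 CPM. Top2a, the topoisomerase of dividing cells, was found in 6 of 9, 2 of 4 and 2 of 13 cells titled Blood, and in 7 of 15, 6 of 20 and 3 of 11 titled Control. Across all members the cell cycle list did not stand apart from the other macrophages, with 1 of 20 genes higher (Ube2c) and 1 lower (Mcm3). The median mitochondrial share moved with Ctsk too, at 3.23%, 5.59% and 6.97% in the groups titled Blood and 3.83%, 5.48% and 6.83% in those titled Control. Median depth had no common order, at 35942, 46583 and 17223 UMIs titled Blood, and 29783, 31008.5 and 32039 UMIs titled Control. The rank correlation of a cell's total UMIs with Ctsk was -0.44 titled Blood and 0.07 titled Control. The part of mitochondrial share and depth in the gradients was not tested.

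**Figure D4:**
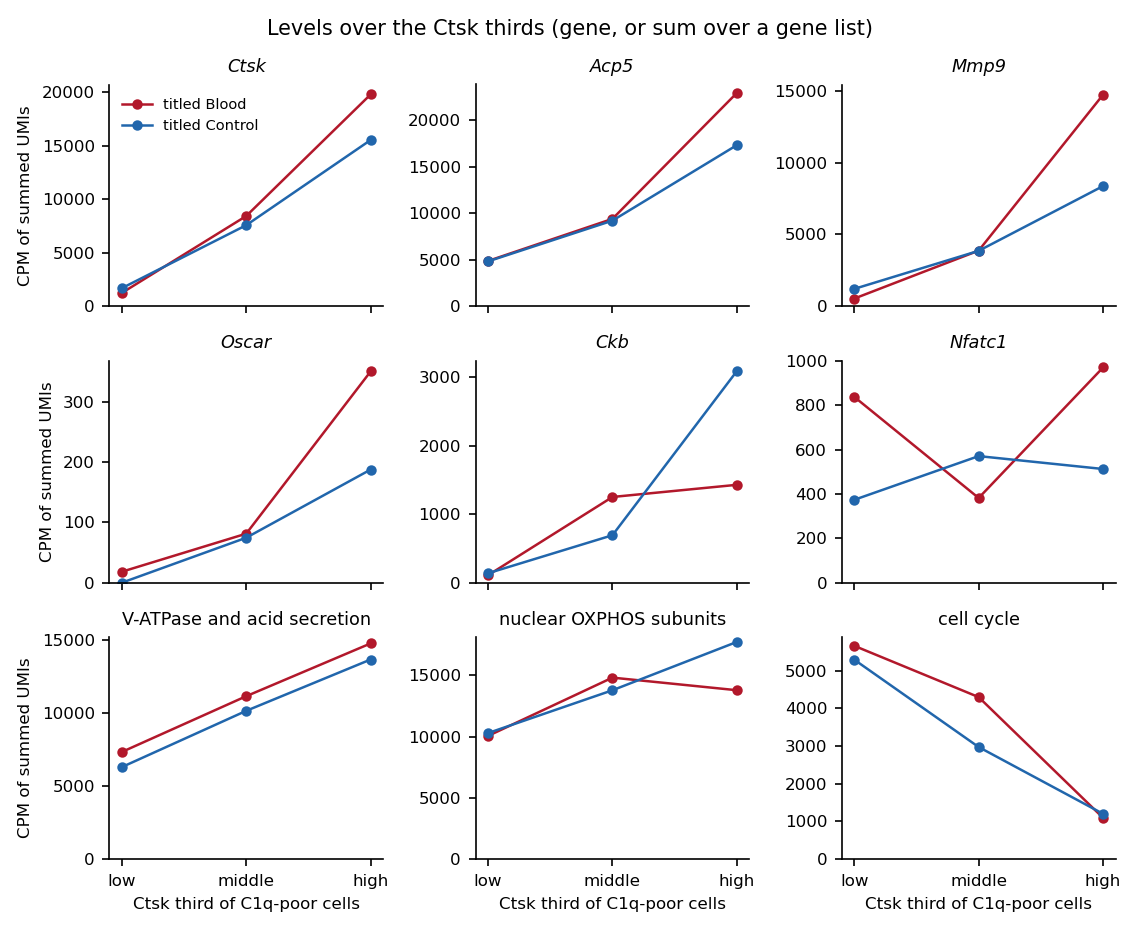
Levels in CPM over the low, middle and high Ctsk group among C1q-poor members, red for titled Blood and blue for titled Control, for 6 genes and 3 summed lists. Acp5, Mmp9, Oscar, Ckb and the V-ATPase genes climb with Ctsk in both libraries, Nfatc1 has no common order, and the cell cycle genes decline from 5658 to 1093 CPM and from 5291 to 1201 CPM.

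Between the libraries, 387 of 6046 genes were at least 1.5-fold higher in members titled Blood than in members titled Control, 6.4%, and 240 were lower, 3.97%. The effector list was close to 0, with 2 of 17 genes higher, 1 lower and a median of 0.07. In C1q-poor members, where 6.73% of 5871 genes were higher and 5.02% lower, 4 of 17 effectors were higher (Itgb3, Mmp9, Oscar and Snx10) and 0 lower, with a median of 0.28. Itgb3 was at 67.7 CPM titled Blood and 27.6 CPM titled Control, a ratio of 2.45 (1.67 to 3.64), and 2.85 (1.92 to 4.28) in C1q-poor members. Oscar had a ratio of 1.56 (1.201 to 2.02), and its log2 ratio of 0.61 was -0.11 without the shared barcodes. Ckb was lower, with a ratio of 0.640 (0.586 to 0.698), but its log2 ratio of -0.64 became 0.04 when each cell counted alike. That setting gave the 15 and 8 shallow copies the same weight as deeper members, and their part in this was not tested. Median Ckb was 1266 and 459 CPM in shallow copies, 784 and 359 CPM in C1q-poor and 59.8 and 21.7 CPM in C1q-rich members. None of the 21 tested acid secretion genes and none of the 22 oxidative phosphorylation genes passed the limit in either direction. Mmp9 was 1.37-fold (1.32 to 1.42) and Nfatc1 1.36-fold (1.22 to 1.51) higher, both below the limit over all members, and 1.55-fold (1.49 to 1.61) and 1.62-fold (1.45 to 1.80) in C1q-poor members.

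The genes highest in members titled Blood were macrophage genes. Pf4, a chemokine of platelets and tissue macrophages, was at 1264 CPM titled Blood and 280 CPM titled Control, a ratio of 4.52 (4.06 to 5.03). In C1q-poor members it was at 99.7 and 110 CPM. Apoe, apolipoprotein E, was at 6253 and 1846 CPM over all members, 19713 and 8310 CPM in C1q-rich and 1690 and 1144 CPM in C1q-poor members. Lyz2, lysozyme, was at 3151 and 1009 CPM over all members but at 242 and 388 CPM in C1q-poor ones. Arg1, arginase, was at 1071 and 344 CPM, and at 298 and 280 CPM in C1q-poor members. Of 14 tested macrophage markers, the C1q genes among them, 11 were higher over all members, with a median of 1.23. In C1q-poor members, set apart by low C1q, 0 of 11 were higher, with a median of 0.14. Of the 10 named genes, Pf4, Lilr4b, Ccl8, Wfdc17 and Lyz2 changed sign in C1q-poor members and Abca1, the cholesterol exporter, stayed above 1.5-fold with a ratio of 2.12 (1.16 to 3.89). The share of C1q-rich members moved with these differences, at 36.6% of the deep members titled Blood and 13.2% of those titled Control. Lilr4b and Lilrb4a are near-identical genes whose reads may be split, and their single values are uncertain.

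The genes lowest in members titled Blood were largely those induced by interferon. Isg15, a ubiquitin-like protein gene, was at 29.1 CPM titled Blood and 91.4 CPM titled Control, a ratio of 0.319 (0.209 to 0.472), and was found in 14 of 56 and 32 of 61 members, or 12 of 41 and 29 of 53 without the shallow copies. In C1q-poor members Isg15 levels were 14.1 and 92.7 CPM, with a ratio of 0.152 (0.0739 to 0.280). Gbp2, a guanylate-binding protein gene, had a ratio of 0.347 (0.250 to 0.473) over all members and 0.183 (0.102 to 0.306) in C1q-poor ones. Igtp and Ifi47, interferon-inducible GTPase genes, were at 17.9 and 23.5 CPM titled Blood and at 62.6 and 75.5 CPM titled Control. The differences were as large without the C1q-rich cells. Of 10 tested interferon-stimulated genes 5 were lower and 0 higher over all members, with a median of -0.69. In C1q-poor members, where 5.02% of 5871 genes were lower and 6.73% higher, 8 of 8 were lower, with a median of -1.29. In the other C1q macrophages Isg15 was at 137 CPM titled Blood and 287 CPM titled Control, so the lower level was not confined to the osteoclast-like cells.

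Single cells weighed on some of these values. For Isg15 the log2 ratio was -1.50 over all members, -1.59 without the shallow copies, -1.55 without any shared barcode and -0.41 when each cell counted alike. For Gbp2 it was -1.43, -1.48, -0.26 and -0.22, and for Igtp -1.56, -1.62, -1.08 and -0.13. The direction held each time, and the difference was smallest when each cell counted alike. Counting cells alike also gave full weight to the 15 and 8 shallow copies, whose part in the smaller difference was not tested. Ifitm1 was at 25.4 CPM titled Blood and 88.9 CPM titled Control, but 74.5% of its UMIs titled Control lay in 1 cell, and its log2 ratio of -1.63 turned to 0.52 without the 3 deepest members of each library. Id3, a brake on the programme, was at 22.6 and 4.91 CPM, with 91.7% of its UMIs titled Blood in 1 cell. Outside this group, Gja1, a gap junction gene, was found in 6 of 56 and 29 of 61 members, or 6 of 41 and 29 of 53 without the shallow copies, with a ratio of 0.375 (0.224 to 0.602). Tmsb10, which binds actin monomers, had a ratio of 0.429 (0.366 to 0.501). Cox7a1, a subunit of cytochrome oxidase, had a ratio of 0.411 (0.256 to 0.639), Cxcl9, a chemokine induced by interferon, 0.351 (0.281 to 0.435), and Il1b 0.417 (0.291 to 0.588).

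**Figure D5:**
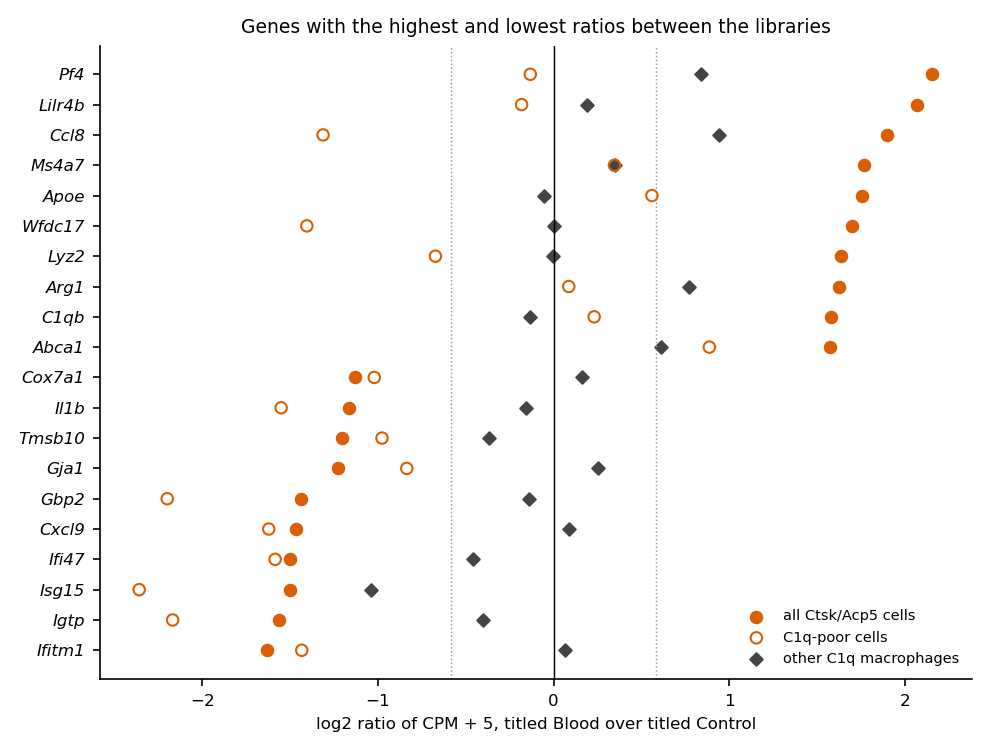
Log2 ratio of members titled Blood over members titled Control for the 10 highest and 10 lowest named genes. Filled points are all members, open points C1q-poor members and diamonds the other C1q macrophages, with dotted lines at a 1.5-fold difference. The open points of Pf4, Lilr4b, Ccl8, Wfdc17 and Lyz2 lie below 0 while those of Isg15, Igtp and Gbp2 lie further left than the filled ones.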

How the data were processed

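Droplet-based single-cell RNA sequencing (10x Genomics 3′ v3 chemistry) was done on minced tumours after enzyme digestion (collagenase B, DNase I), filtering and red cell lysis, per the labels' protocols. The files deposited by the authors hold unnormalized UMI counts for each gene in each barcode. The submitters' processing notes name Cell Ranger 3.1.0 and mm10, while the annotation release and the barcode-calling setting are not stated there. The matrices held 12057 barcodes and 115066023 UMIs titled Blood, and 9475 barcodes and 115272096 UMIs titled Control.

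Counts were added up over the cells of a class in each library and scaled to a common class total (CPM). Log2 ratios used CPM plus 5. Genes with at least 20 CPM in either class and 20 counts were compared, with limits of 2-fold in both libraries against macrophages and 1.5-fold between libraries. Shares have Clopper-Pearson intervals and ratios conditional binomial intervals (scipy 1.17.1, numpy 2.4.6, pandas 2.3.3, Python 3.11.15). Limits for 0 UMIs are those of 3 counts. The members, their rule and the 29 gene lists were chosen with earlier results of these data known. Genes were named by rule: the 15 highest and 10 lowest against macrophages by the library closer to 0 (at least 50 CPM), the 10 highest and 10 lowest between libraries (at least 50 CPM and 50 counts, interval leaving out 1), all osteoclast effectors, factors and brakes, a set of protease and iron genes, and up to 4 genes per other list. Left out were Xist, Y-linked, antigen receptor, globin, predicted, ribosomal and mitochondrial genes. Some list members outside this rule were named after their values were seen, among them Adam8, Atp6v0a1, Atp6v0d1, Cd68, Cd81, Cyc1, Itgav, Lpl, Mki67, Ndufa4, Slc2a1, Slc4a2, Slc6a8 and Top2a. Doublets were called with Scrublet (scanpy 1.11.5) and not removed. It marked 2.38% of cells titled Blood and 1.80% of those titled Control where 9.29% and 7.19% were expected, and so some doublets will have stayed in. Reads at the transcript end cannot always tell near-identical genes apart. The calculation was tested on simulated data. Some genes are not reported here.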

Additional observations from a re-analysis of the deposited data

How the results depend on the processing

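The results were recomputed under 16 other settings, of which those without shallow copies, without shared barcodes, with C1q-poor members and without the 3 deepest members of each library were chosen after seeing the data. The share ratio of members (0.710) stayed below 1 throughout, and was 0.440 for C1q-poor members. The median log2 ratio of the effector list over macrophages ranged from 2.10 to 2.93. Genes at least 2-fold lower than in macrophages numbered 316 with 2 UMIs of Ctsk and Acp5 as the limit and 777 for C1q-poor members, against 508. Without shared barcodes 225 genes were higher and 258 lower than in macrophages, and 814 were higher and 658 lower in the library titled Blood. Between the libraries 1096 genes were higher and 993 lower with the mean of cell CPM, 888 and 671 with no CPM filter (13131 genes tested), and 593 were higher without the 3 deepest members. Log2 ratios of members titled Blood over titled Control turned round as follows, and the cause was not tested. With 2 UMIs as the limit Ccl12 was -0.48, Sparc 1.92 and Tmsb10 0.20, and with 5 UMIs Sparc was 0.40. In members with Mmp9 and Atp6v0d2, Ccr2 was 0.25, Csf1 0.32 and Sparc 0.27. With the mean of cell CPM, which weighs shallow copies like deeper cells, Ckb was 0.036, Id3 -0.94, Ly6a 0.80, Mmp12 -0.064, Pou2f2 -0.65 and Sparc 0.36. Without shared barcodes Csf1 was 0.084, Id3 -1.17, Ifitm1 0.15, Oscar -0.11 and Sparc 0.66, and Ube2c over macrophages was -0.0029. In C1q-poor members C3ar1 was -0.15, Ccl8 -1.31, Csf1 0.33, Ctsb -0.070, Ctss -0.34, H2-Aa -0.013, Lilr4b -0.18, Lilrb4a -0.35, Lyz2 -0.67, Mmp12 -2.51, Mmp13 -0.35, Pf4 -0.13, Pou2f2 -0.37, Sparc 0.10 and Wfdc17 -1.40. Without the 3 deepest members Id3 was -0.44 and Ifitm1 0.52. Without shallow copies and with median-ratio scaling no named value moved beyond its counting interval. With 56 and 61 members, and 1 library per title, counting error is the only error that could be given, and genes under about 3 UMIs in all members cannot be told from 0. No paired analysis was possible because each group has 1 library.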
